A study of Mus musculus with 15 samples.

Results

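The transcription factors that mark granulosa cells were described in mouse cumulus cells across the acquisition of oocyte developmental competence. The 10 genes listed were Foxl2, Wt1, Gata4, Gata6, Foxo1, Foxo3, Emx2, Lhx9, Irx3 and Sox4, and their probes were found by the gene symbol given in the authors' processed table. That table names 15059 genes and holds 13 probes for 9 of the 10, all but Foxo3. A valid probe is one whose signal stood well above background on 4 or more of the 5 arrays in every stage, and 12 probes of 8 genes were valid, all but Foxo3 and Lhx9.

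Cumulus cells are the granulosa cells that enclose the oocyte, and each stage was measured on 5 one-colour oligonucleotide arrays, each array hybridized with RNA pooled from 4 to 5 B6CBAF1/J mice. For NC1, complexes were unexpanded, the mice were 3-week-old and the prophase I oocytes were labelled developmentally incompetent, which the study also words as poorly competent. For C1, complexes were also unexpanded but the mice were 8-week-old and the prophase I oocytes competent. For C2, 8-week-old mice were given pmsg and then hCG, and expanded complexes holding metaphase II oocytes were flushed from the oviduct and dispersed with hyaluronidase. The study's methods name these hormones and this enzyme for C2 alone. Stage therefore cannot be told apart from age in NC1 against C1, nor from hormones, collection site and enzyme in C1 against C2. Whole RNA was measured, so fewer granulosa cells and less of a transcript per cell cannot be told apart.

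Granulosa cells derive from bipotential gonadal precursors. Homeobox and zinc finger factors such as Emx2, Lhx9, Wt1 and Gata4 act early in the gonadal ridge, and Foxl2, a forkhead factor, later keeps the ovarian fate and represses the Sertoli programme. The FOXO factors are forkhead proteins that the PI3K and AKT pathway excludes from the nucleus, and they act downstream of FSH and growth factor signalling in the follicle. Ovulation ends the proliferative granulosa programme and starts luteinization.

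Values are given on the log2 scale relative to the median valid probe of the array, so a value of 0 is that median, and levels are not compared between probes. Over the 15 arrays, 18366 to 24493 of 39429 gene probes were well above background. Of 10 granulosa markers, all 10 were well above background in 4 or more arrays at NC1 and at C1, and 9 were at C2, where Kitl was so in none. Their summed signal, in multiples of the array median, ran from 337 to 489 at NC1, from 360 to 390 at C1 and from 101 to 120 at C2. Of 12 oocyte markers, 11 were well above background in 4 or more arrays at NC1 and at C1, and 3 were at C2. Some were low in all C2 arrays, such as Zp3, at 0.97 to 2.01 at C1 and -5.59 to -3.67 at C2. The summed signal of the list, 12.9 to 51.0 at NC1 and 13.1 to 40.8 at C1, divided the C2 arrays. It was 13.7 to 17.3 in C2 replicates 1, 2 and 3 and 0.723 to 0.834 in C2 replicates 4 and 5. Oosp1 was divided likewise, at -0.06 to 1.22 and at -6.96 to -6.49. Results at C2 that differ between these arrays are given for each set.

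The sequences just before the transcription start of Foxl2 and Foxo1 are shown because these are the forkhead genes of the list with a valid probe. Both probes of Foxo1 and the dimmer of the 2 Foxl2 probes fell at C2, while the brighter Foxl2 probe did not pass the test, as given further on. Sequences are those of the RefSeq annotation of GRCm38.p6, 250 bases each, 5′ to 3′ and on the plus strand, with the letters GGGCGG or their reverse complement CCGCCC, a core bound by SP and KLF factors, in capitals. Foxl2 lies at chr9:98955357-98955606 and Foxo1 at chr3:52268087-52268336.
Foxl2: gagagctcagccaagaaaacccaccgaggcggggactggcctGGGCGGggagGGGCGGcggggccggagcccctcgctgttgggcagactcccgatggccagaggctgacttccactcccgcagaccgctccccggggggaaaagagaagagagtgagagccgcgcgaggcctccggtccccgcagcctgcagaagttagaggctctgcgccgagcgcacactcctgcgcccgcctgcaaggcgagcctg
Foxo1: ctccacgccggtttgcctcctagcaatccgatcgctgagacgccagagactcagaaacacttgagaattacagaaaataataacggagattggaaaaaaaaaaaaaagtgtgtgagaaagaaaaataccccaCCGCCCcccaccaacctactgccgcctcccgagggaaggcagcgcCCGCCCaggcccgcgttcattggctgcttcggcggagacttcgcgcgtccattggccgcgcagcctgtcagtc

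A start site was listed for 7 of the 10 genes, all but Wt1, Gata4 and Gata6. Both strands of these 7 windows were searched for 5 exact motifs. GGGCGG occurred in 4 of them, those of Foxo1, Foxl2, Foxo3 and Emx2, and in 32.7% of 32851 windows of the same length before all listed start sites. G and C made up 56% to 76.4% of these 4 windows and 50.8% to 56% of those of Sox4, Irx3 and Lhx9. The median over all listed start sites was 52.4%. Windows of like GC content were not compared, so no excess of GGGCGG is read from this share. The remaining motifs occurred in none of the 7. Of all windows, 3.17% held the forkhead letters GTAAACA and 9.99% held AGATAA, which GATA factors bind. AAGGTCA, the site of NR5A receptors, stood in 4.08% and GCGGGGGCG, shared by WT1 and EGR factors, in 2.57%. In Foxl2 the GGGCGG matches began 208 and 198 bases before the start, and in Foxo1 the CCGCCC matches began 118 and 73 bases before it. The letters were not found in these windows of Sox4, Irx3 and Lhx9, so that windows with and without them belonged both to genes lower at C2 than at another stage (Foxo1 and Emx2 with, Sox4 and Lhx9 without) and to genes whose brightest probe did not pass (Foxl2 with, Irx3 without). A match is a description of sequence only.

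The first comparison asked which of these factors differed among the 3 stages. Of the 8 genes with a valid probe, 5 were differentially expressed over the stages (Wt1, Foxo1, Gata6, Emx2 and Sox4), as were 51.6% of all 17323 valid probes (limma, moderated F-test, Benjamini-Hochberg adjusted p below 0.01). A share this close to that of all probes is not particular to these genes. Foxl2, Gata4 and Irx3 did not pass the threshold, each read through the brightest valid probe of the gene.

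Between NC1 and C1 none of the 8 genes passed the threshold, against 2.52% of all probes. Read through the brightest valid probe, none had an unadjusted p below 0.05 (limma), whereas 2917 of the 17323 valid probes did. The unmoderated test also called none. Their log2 changes ran from -0.43 for Wt1 to 0.35 for Irx3, and the smallest adjusted p was 0.299 (limma). The second Foxo1 probe was the exception in its ordering of arrays. It was lower in every C1 array than in any NC1 array, with a log2 change of -0.61 ± 0.16 (SE) and an adjusted p of 0.0354 that missed the threshold of 0.01. The share of all probes without overlap in this comparison was not computed. Unadjusted, the p of this probe was 0.00154 and that of a dimmer Sox4 probe was 0.034 (limma).

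Between C1 and C2, 3 of the 8 genes were differentially expressed and all 3 were lower at C2, whereas 22.2% of all probes were lower, 25.4% were higher and 47.6% were called in either direction. The arrays of C1 and C2 did not overlap for 4 of the 8 genes and for 43.9% of all probes. The median log2 change was -0.56 over the 8 genes and 0.02 over all probes. At the level of probes, 7 of the 12 member probes of 5 genes passed the threshold, and all 7 were lower at C2. Over the whole span from NC1 to C2, 5 of the 8 genes were lower at C2, beside 24.9% of all probes lower, 26.5% higher and 51.5% in either direction. For 5 of the 8 genes the arrays did not overlap in that comparison, as for 48.9% of all probes. The C2 arrays are shared by these 2 comparisons.

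**Figure D1:**
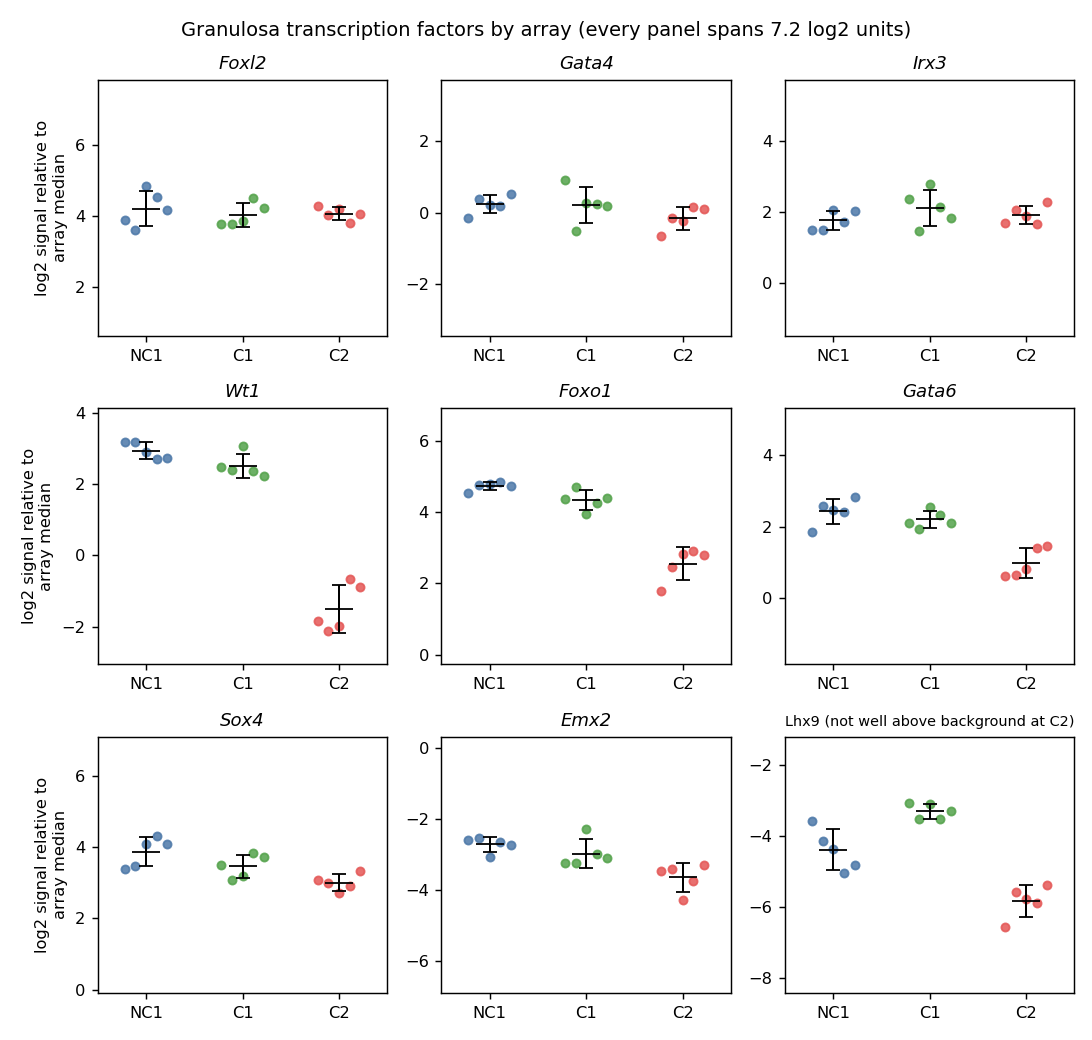
Log2 signal relative to the array median (y axis) of 9 genes in the 5 arrays of each stage (x axis, points), with the mean and SD as black bars; every panel spans the same number of log2 units. Foxl2, Gata4 and Irx3 overlapped between all stages, while the 5 C2 arrays of Wt1, Foxo1, Gata6 and Emx2 lay below all C1 arrays.

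Wt1, a zinc finger factor needed for gonad formation and for granulosa cell development, fell most among the genes listed. Its values in NC1 replicates 1 to 5 were 3.19, 3.19, 2.90, 2.70 and 2.72. In the C1 replicates they were 2.49, 2.40, 3.08, 2.36 and 2.22. In the C2 replicates they were -1.85, -2.12, -1.99, -0.66 and -0.88. All C2 arrays lay far below every array of the other stages, and within C2 replicates 4 and 5 were higher than the others. The log2 change from C1 to C2 was -4.01 ± 0.26 (SE), a 16.1-fold lower signal (limma, adjusted p = 1.87e-09), and 61 of the 17323 valid probes, Wt1 included, fell as much or more. Within the 4 slides the difference lay between -4.93 and -3.32. It was -3.28 with C2 replicates 4 and 5 only and -4.49 with C2 replicates 1, 2 and 3 only, and it passed the threshold in each.

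Markers of theca and stroma and the uroplakins of the ovarian surface epithelium, a layer that also expresses Wt1, Gata4, Emx2 and Lhx9, moved in the same direction as Wt1. All 9 theca and stroma markers were well above background at NC1 and at C1 and 5 were at C2, and their summed signal was 13.5 to 61.6 at NC1, 12.2 to 19.2 at C1 and 0.542 to 0.784 at C2. All 5 valid genes of the list fell from C1 to C2. The collagen Col1a2 fell by 5.52 and Col1a1 fell by 4.94, while Lum, Pdgfra and Tcf21 reached this detection level on no C2 array. Among 8 surface epithelium markers, Upk3b and Upk1b were well above background in every NC1 and C1 array and in no C2 array, and Lrrn4 was so in no array. The summed signal of that list was 7.55 to 9.61 at NC1, 8.06 to 14.2 at C1 and 21.3 to 29.0 at C2. Of its 4 valid genes, the keratins Krt8 and Krt18 rose from C1 to C2 by 1.30 and 1.76, Krt19 fell by 2.28 and 1 did not pass. The part of these cells in the fall of Wt1 was not tested. Within NC1 the theca and stroma sum was 61.6 and 37.9 in replicates 1 and 2, where Wt1 was highest of its stage at 3.19. In NC1 replicates 3, 4 and 5 that sum was 13.5 to 18.1 and Wt1 was 2.70 to 2.90. At C1 the sum was highest in replicate 5, at 19.2, where Wt1 was lowest of its stage at 2.22. Between C2 replicates, the theca and stroma sum did not divide replicates 4 and 5 from the rest. Whether Wt1 followed this sum within a stage was not tested.

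**Figure D2:**
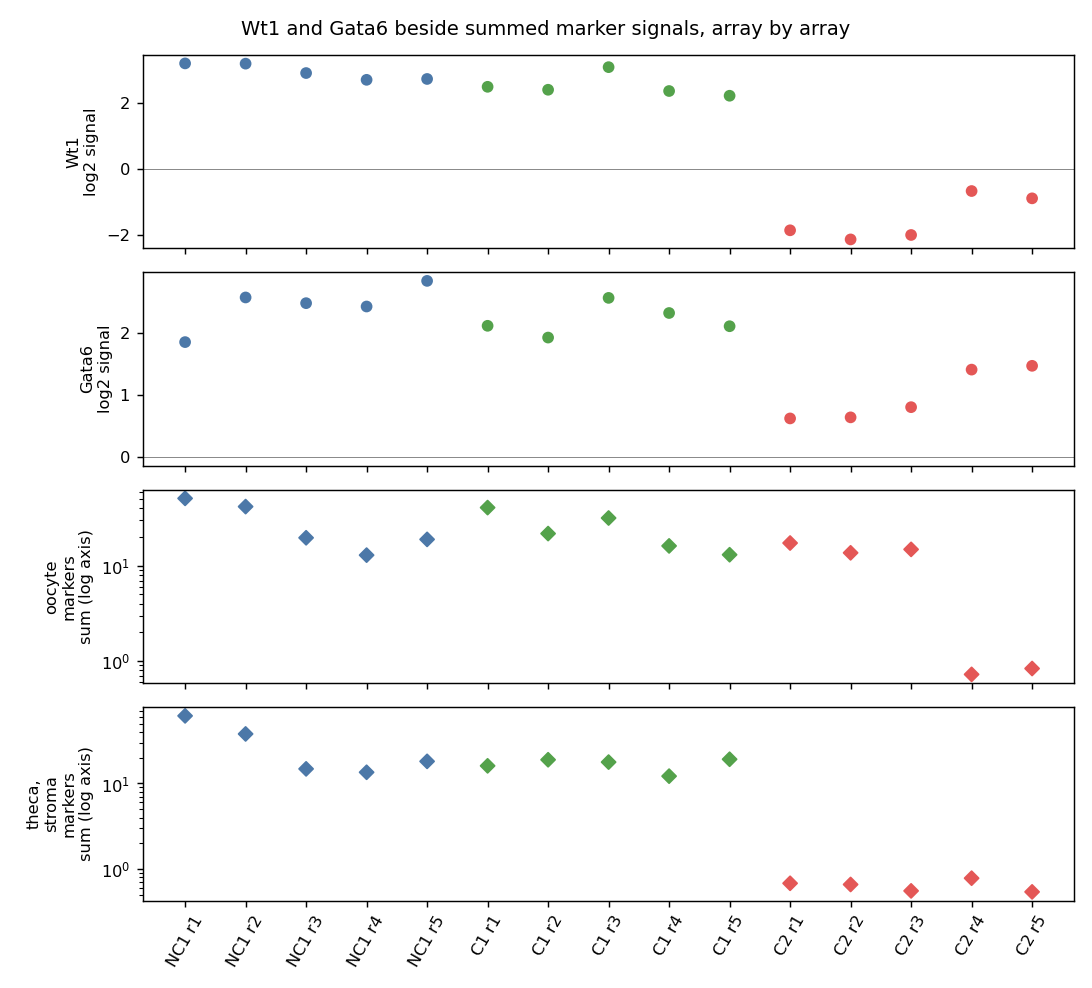
Log2 signal of Wt1 and Gata6 (upper panels, relative to the array median) and the summed signal of oocyte markers and of theca and stroma markers (lower panels, multiples of the array median on a log axis) in each of the 15 arrays, coloured by stage. Theca and stroma signal was at most 0.784 in all C2 arrays, and oocyte signal was below 1 in C2 replicates 4 and 5, where Wt1 and Gata6 were higher than in the other C2 arrays.

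The genes whose centred values over the 15 arrays were nearest to those of Wt1 were Scara5, Adamts19 and Cd200, with root mean square differences of 0.32, 0.34 and 0.37 on the log2 scale. The corresponding spread of Wt1 about its own mean was 2.04. Scara5, a ferritin receptor, had stage means of 0.28, -0.22 and -3.86 at NC1, C1 and C2.

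Foxo1, the forkhead factor that FSH and insulin-like signals restrain in granulosa cells, also fell at C2. Its brighter probe gave 4.53, 4.77, 4.80, 4.85 and 4.72 in the NC1 replicates. It gave 4.38, 4.71, 3.95, 4.27 and 4.41 in the C1 replicates. In the C2 replicates it gave 1.79, 2.46, 2.84, 2.90 and 2.80, so that no C2 array reached any C1 array and replicate 1 was the lowest. The change from C1 to C2 was -1.78 ± 0.19 (SE), 3.44-fold lower (limma, adjusted p = 4.81e-07), and the second probe fell by 1.42 ± 0.16 (adjusted p = 1.19e-06). From NC1 to C2 the 2 probes fell by 2.18 and 2.04. Within slides the C2 minus C1 difference of the brighter probe lay between -2.16 and -1.57, and it was -1.49 with C2 replicates 4 and 5 only. The nearest genes to Foxo1 were Adcy9, an adenylate cyclase, Fam98a and Col4a5, a basement membrane collagen chain, with differences of 0.22, 0.23 and 0.23 against a spread of 0.99.

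Foxo3, which holds primordial follicles dormant in the oocyte, was represented by 1 probe outside the processed table. Only 2, 2 and 1 of the 5 arrays per stage, from NC1 to C2, detected it well above background, so no change was computed for it. Foxo4 was well above background in no array. Foxo6 was valid and had a log2 change of -0.53 from C1 to C2 that missed the threshold (adjusted p = 0.043, limma).

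The kinases and receptors upstream of FOXO were read from a list of 17 genes, of which 16 were valid. Between C1 and C2, 5 rose, 3 fell and 8 did not pass, and the median change was 0.17. Sgk1, a kinase that phosphorylates FOXO factors, rose by 2.57 from NC1 to C1 and by a further 2.90 from C1 to C2. No other gene of the list passed the threshold from NC1 to C1. Pik3r1, the regulatory subunit of PI3K, rose by 2.51 at C2. Skp2, a ubiquitin ligase subunit that recognizes Foxo1, fell by 1.59, and Kit, the receptor of Kit ligand, fell by 1.05.

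Genes that FOXO factors are known to activate moved both ways. Of 19 listed, 14 were valid, of which 5 rose, 3 fell and 6 did not pass between C1 and C2, with a median change of 0.07. Against the 25.4% of all probes higher and 22.2% lower in this comparison, nothing particular to this list or to the upstream genes is read from these counts. Fbxo32, a ubiquitin ligase of atrophy, rose by 3.84. Bcl6, a transcriptional repressor, rose by 2.61, and Cdkn1b, which encodes the cell cycle inhibitor p27, rose by 2.24. Txnip, the thioredoxin interacting protein, fell by 2.45. Between NC1 and C1 none of the 14 was called at the threshold.

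**Figure D3:**
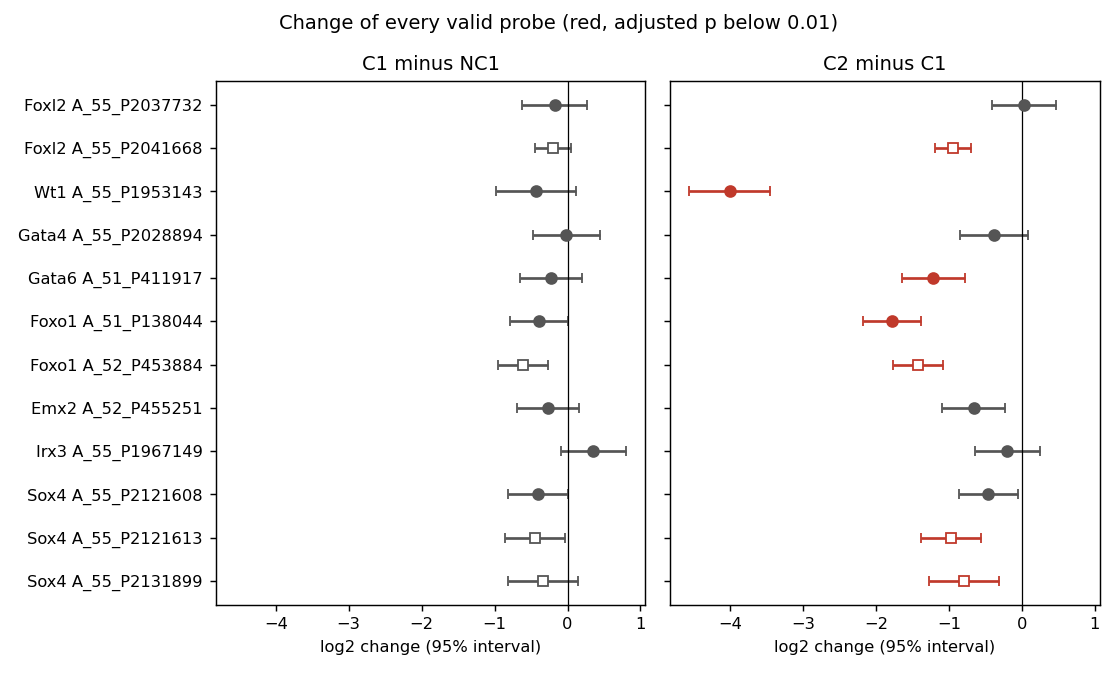
Log2 change with its 95% interval (x axis) of the 12 valid member probes (y axis) from NC1 to C1 (left) and from C1 to C2 (right); filled circles are the probe that stands for the gene, open squares its other probes, and red marks an adjusted p below 0.01. No probe was called on the left, and 7 were called on the right, all with lower signal at C2.

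Gata4 and Gata6 are zinc finger factors that activate Cyp19a1, Inha and Amh in granulosa cells with overlapping roles. Gata6 gave 1.85, 2.56, 2.47, 2.42 and 2.83 in the NC1 replicates and 2.11, 1.92, 2.56, 2.31 and 2.10 in the C1 replicates. In the C2 replicates it gave 0.62, 0.64, 0.80, 1.40 and 1.46, and all of these lay below every C1 array, with replicates 4 and 5 above the other C2 arrays. It fell by 1.22 ± 0.20 (SE), or 2.32-fold (limma, adjusted p = 7.25e-05), and between -1.94 and -0.55 within slides. With C2 replicates 4 and 5 only the change was -0.77 and missed the threshold (adjusted p = 0.0128), and with C2 replicates 1, 2 and 3 only it was -1.51. From NC1 to C2 the change was -1.44, and it passed the threshold in both of those sets of arrays.

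Gata4 gave -0.14, 0.38, 0.22, 0.19 and 0.52 at NC1. It gave 0.92, -0.52, 0.28, 0.23 and 0.19 at C1, and -0.66, -0.16, -0.25, 0.14 and 0.10 at C2. The stages overlapped, and the highest value of all 15 arrays was that of C1 replicate 1, while C1 replicate 2 had the lowest of its stage. Its C2 minus C1 change was -0.38 with a 95% interval from -0.85 to 0.08, and the adjusted p was 0.143 (limma). The difference of Gata6 minus Gata4 within each array tested whether the pair changed unequally. It ran from 1.19 to 2.44 at C1 and from 0.80 to 1.36 at C2, a change of -0.83 (exact permutation test, two-sided, p = 0.0317, and 0.0635 adjusted over 2 tests). From NC1 to C1 it changed by -0.21 (exact p = 0.46). An unequal change of the pair was thus not shown at an adjusted p of 0.05, where the smallest p that 5 against 5 arrays can give is 0.00794. Without C1 replicate 1 the change was -1.03 and the adjusted p was 0.0317. Gata1, Gata2, Gata3 and Gata5 had no valid probe, and Gata2 was well above background in no array.

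Foxl2 was read by 2 valid probes, both designed to the same RefSeq transcript, and they disagreed at C2. The brighter probe gave 3.88, 3.61, 4.85, 4.53 and 4.17 at NC1 and 3.78, 3.78, 3.85, 4.51 and 4.23 at C1. At C2 it gave 4.27, 4.01, 4.19, 3.80 and 4.04. All stages overlapped, and the C2 minus C1 change was 0.03 with a 95% interval from -0.41 to 0.47 (limma, adjusted p = 0.908). The sign of this small change turned under several alternatives, among them spike-in scaling (-0.12), quantile normalization (-0.14) and C2 replicates 4 and 5 only. Over 29 alternatives the change ran from -0.46, where the probes of the gene were averaged, to 0.34. It passed the threshold in none. The dimmer probe averaged -2.19 ± 0.22 at NC1 and -2.39 ± 0.13 at C1 (SD, n = 5 arrays). At C2 it averaged -3.33 ± 0.15 and gave -3.51, -3.46, -3.23, -3.18 and -3.27. Its C2 arrays overlapped no other array, and it fell by 0.94 ± 0.12 (SE) from C1 to C2 (adjusted p = 2.89e-06). Which part of the transcript each probe reads was not analysed here, so the direction of Foxl2 depends on the probe. The nearest genes to the brighter probe were Ptpa, a phosphatase activator, Khsrp, an RNA binding protein, and A830039N20Rik, with differences of 0.12, 0.14 and 0.15 against a spread of 0.33.

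**Figure D4:**
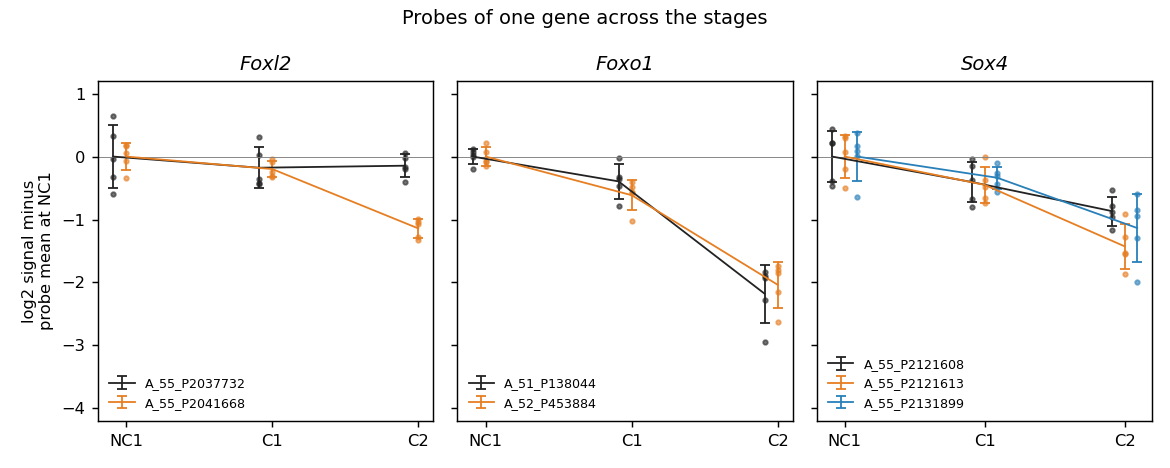
Log2 signal of each valid probe of Foxl2, Foxo1 and Sox4 minus that probe's mean at NC1 (y axis) by stage (x axis); points are arrays, lines join the means and bars are the SD. The probes of Foxo1 moved together, whereas at C2 the Foxl2 probes parted, at -0.14 and -1.14 from NC1.

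Sox4, an HMG box factor of the SoxC group, was read by 3 valid probes. The brightest gave 3.40, 3.48, 4.08, 4.31 and 4.09 at NC1 and 3.50, 3.08, 3.21, 3.83 and 3.72 at C1. At C2 it gave 3.08, 2.99, 2.71, 2.91 and 3.34, below every NC1 array and overlapping C1. Its change was -0.46 from C1 to C2 (limma, adjusted p = 0.0492), which missed the threshold, and -0.87 ± 0.19 (SE) from NC1 to C2 (adjusted p = 0.000881). The other 2 probes fell from C1 to C2 by 0.98 (adjusted p = 0.000384) and 0.80 (adjusted p = 0.00634). All 3 probes were thus lower at C2 than at NC1 beyond the threshold, by 0.87 to 1.43. The call of the brightest probe between NC1 and C2 was lost with C2 replicates 4 and 5 only (-0.75, adjusted p = 0.0322), and also with the array median taken over all gene probes, with spike-in scaling and with the deposited table. Of its paralogues, Sox12 was valid with a change of -0.23 from C1 to C2 (adjusted p = 0.223), and Sox11 was well above background in no array.

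Emx2, a homeobox factor of the urogenital ridge, was dim, with 5 arrays at NC1, 5 at C1 and 4 at C2 detecting it well above background. It gave -2.58, -2.53, -3.06, -2.65 and -2.72 at NC1 and -3.25, -3.25, -2.29, -3.00 and -3.10 at C1. At C2 it gave -3.45, -3.41, -4.29, -3.75 and -3.29, below all arrays of both other stages. The C2 minus C1 change was -0.66 ± 0.20 (SE), with an adjusted p of 0.0101 just beyond the threshold (limma), and from NC1 to C2 it fell by 0.93 (adjusted p = 0.000777). Without C1 replicate 1, C1 replicate 2, C2 replicate 5 or NC1 replicate 3 the first change passed the threshold. The second did not with C2 replicates 4 and 5 only (-0.81, adjusted p = 0.0131).

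Lhx9, a LIM homeobox factor of the gonadal ridge and the surface epithelium, was not valid and did not enter the model that gives the counts above. With no presence filter, or with presence required in at least 1 stage only, it was called lower at C2 than at C1 and at NC1, on values at C2 that are not well above background. The probe in the table was well above background in 4 of 5 arrays at NC1, in all 5 at C1 and in none at C2. It gave -3.59, -4.13, -4.37, -5.04 and -4.81 at NC1 and -3.07, -3.54, -3.11, -3.54 and -3.31 at C1. From C1 to C2 its signal was at least 2.79-fold lower, where the C2 level is bounded by the lowest signal well above background on each array or the probe's own signal if higher. Of its other 2 probes, 1 was detected at this level on 3 C1 arrays and 1 C2 array, and 1 on no array. The theca and stroma markers, the uroplakins, Krt19 and Msln were lower at C2 than at C1, as was Lhx9. Of the surface epithelium list, Krt8, Krt18 and the summed signal rose, as given above. The part of these cells in the change of Lhx9 was not tested.

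Irx3, an Iroquois homeobox factor of granulosa cells, gave 1.50, 1.49, 2.05, 1.72 and 2.04 at NC1. It gave 2.36, 1.45, 2.78, 2.15 and 1.83 at C1 and 1.69, 2.04, 1.89, 1.65 and 2.29 at C2. The stages overlapped, and the C2 minus C1 change was -0.20 with a 95% interval from -0.65 to 0.25 (limma, adjusted p = 0.437). With the array median taken over all gene probes, which moved the median change of all valid probes to 0.33, that change was 0.11 and that of the brighter Foxl2 probe was 0.34, and neither passed the threshold. Among its paralogues Irx5 was detected at this level on 2 arrays of NC1, 4 of C1 and 5 of C2, and Irx1, Irx2 and Irx6 were so in no array. Of 28 paralogues of the 10 genes in all, 11 were valid, of which 3 rose, 2 fell and 6 did not pass from C1 to C2, with a median of 0.10. Of all probes, 25.4% were higher and 22.2% lower in this comparison. Foxm1, a driver of mitosis, fell by 1.29 and Foxk2 fell by 0.68, while Foxn3 rose by 1.19 and Foxk1 by 0.78.

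Genes that these factors act on in granulosa cells were lower at C2 in most cases. Of 15 listed, 12 were valid, and between C1 and C2 9 fell, 1 rose and 2 did not pass, with a median change of -2.94. Of all probes, 22.2% were lower and 25.4% higher in this comparison. Amh, the anti-Mullerian hormone, fell by 4.72, and Inhbb, an activin and inhibin subunit, fell by 4.72. Cyp19a1, the aromatase, fell by 4.55, and Amhr2, the receptor of anti-Mullerian hormone, fell by 3.50. The gene that rose was Wnt4, a female pathway ligand, by 1.79. Among those without a valid probe, Rspo1, an ovarian activator of Wnt signalling, was well above background in all NC1 and C1 arrays and in no C2 array, at least 28.4-fold lower at C2 than at C1, and it was named after its values were seen.

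Between NC1 and C1 the same list gave 1 called gene of 12, Cyp11a1, the cholesterol side chain cleavage enzyme, which rose by 5.46. Lhcgr, the LH receptor, also named after its values were seen, was well above background in no NC1 array and in all C1 arrays, at least 12.1-fold higher at C1. The granulosa markers gave a like count at C2, and some genes are in both lists. Of 9 valid markers, 8 fell and 1 (Bex4) rose, with a median of -3.25, and Ihh, a hedgehog ligand, fell by 6.61. Between NC1 and C1, Bex4 alone among them was called, with a fall of 0.54.

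**Figure D5:**
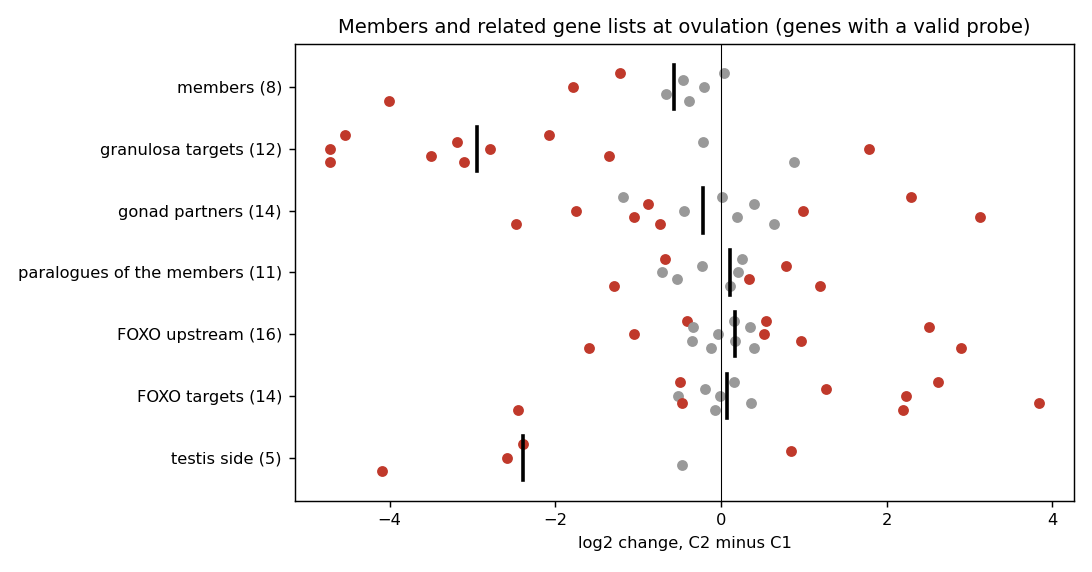
Log2 change from C1 to C2 (x axis) of every gene with a valid probe in the listed factors and in 6 related lists (y axis, number of genes in brackets); red points have an adjusted p below 0.01 and black bars are medians. Granulosa targets had a median of -2.94, while FOXO targets and FOXO upstream genes lay on both sides of 0.

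Partners of these factors in the gonad were spread over both directions, as were all probes. Of 19 listed, 14 were valid, and from C1 to C2 3 rose, 5 fell and 6 did not pass, with a median of -0.22. Cited2, a coactivator that acts with Wt1 in gonad formation, rose by 3.13, and Runx1 rose by 2.29. Esr2, the oestrogen receptor of granulosa cells, fell by 2.47, and Nr5a2, a nuclear receptor needed for ovulation, fell by 1.75. Nr0b1, named after its values were seen, was well above background in all NC1 and C1 arrays and in no C2 array, at least 17.3-fold lower than at C1. None of the 14 was called between NC1 and C1.

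Genes of the testis side, a list not limited to genes that Foxl2 represses, were detected in part. Of 12 listed, 5 were valid, while Sry, Sox9, Sox8 and Cbln4 were well above background in no array and Sox10 in 1. Fgf9, a growth factor, was detected at this level on 5 NC1, 4 C1 and 1 C2 arrays and Cldn11, a tight junction claudin, on 4, 4 and 2. Of all probes, 22.2% were lower and 25.4% higher from C1 to C2. In that comparison 3 of the 5 valid genes of the list fell, 1 rose and 1 did not pass, with a median of -2.39. Those that fell were Dhh, a hedgehog ligand that granulosa cells also make, by 4.09, Ptgds, a prostaglandin D synthase, by 2.59, and Vnn1, a pantetheinase, by 2.39. Gdnf, a growth factor, rose by 0.85. Dmrt1 was valid but dim, and its change was -0.47 (adjusted p = 0.046, limma). Ptgds rose by 1.09 between NC1 and C1.

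Over the whole span from NC1 to C2 each related list was counted again. Of all probes, 24.9% were lower at C2, 26.5% were higher and 51.5% were called in either direction. Of 12 valid granulosa targets 9 fell and 2 rose, and Cyp11a1 was higher by 6.34. Of 14 valid gonad partners 7 fell and 4 rose, and of 11 valid paralogues 5 fell and 1 rose. Of 5 valid genes of the testis side 3 fell and none rose. Of 16 valid FOXO upstream genes 4 rose and 4 fell, with Sgk1 higher by 5.47. Of 14 valid FOXO targets 5 rose and 4 fell. The lists were chosen with earlier results of these data known, so nothing particular to a list is read from these counts, the granulosa targets included.

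Markers of the remaining cell types were read beside these results. Oviduct epithelium markers summed to 0.522 to 2.14 at NC1, 0.581 to 2.59 at C1 and 0.981 to 8.75 at C2, where replicates 4 and 5 were highest at 7.13 and above. Of its 3 valid genes, 2 fell from C1 to C2 (Epcam by 1.05 and Tppp3 by 1.01). Ovgp1, the oviduct glycoprotein, had a change of 2.28 that missed the threshold (limma, adjusted p = 0.0343), and from NC1 to C2 it rose by 3.32 (adjusted p = 0.00347). Pax8 was well above background in no array. Red blood cell markers summed to 12.7 to 127 at NC1, 2.14 to 8.77 at C1 and 1.76 to 4.42 at C2, and from NC1 to C1 the haemoglobin genes Hbb-b2 and Hba-a1 fell by 3.42 and 3.12. Among 3 valid oocyte markers, Npm2 fell from C1 to C2 by 2.89 and the other two did not pass. Leukocyte markers summed to 0.0887 to 0.143 at NC1, 0.109 to 0.215 at C1 and 0.189 to 0.661 at C2. None of the 3 leukocyte markers with a probe was valid. Each was well above background on 1 NC1 array and on 1 to 3 C1 arrays, so the sums of those stages lie near background. Endothelium markers summed to 0.657 to 0.899 at NC1, 0.775 to 1.03 at C1 and 0.966 to 1.71 at C2. Replicates 4 and 5 of C2 had the highest endothelium sums, at 1.64 and above. Of 2 valid endothelium genes Cdh5 rose by 1.50 from C1 to C2, and Kdr did not pass (0.09, adjusted p = 0.58, limma). Emcn was well above background on 4 C1 arrays and on no C2 array, and Tek was so on no array. The list thus did not move in 1 direction. The part of these cells in the changes of the listed factors was not tested.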

How the data were processed

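Total RNA of 15 pools of mouse cumulus cells was hybridized to 4x44K arrays on 4 slides, each of which held all 3 stages. The authors deposited linear spot intensities after background subtraction (Feature Extraction 10.7.1.1 per the file headers and 10.5.1.1 in the submitters' processing notes), and a table of log2 values scaled by array. The scanner intensities were used as the main values and the deposited log2 table as an alternative. Flagged and control spots were left out, spots of a probe averaged, log2 taken and the array median over 17323 valid probes subtracted. A probe counted as well above background where most of its spots did. Stages were compared with limma 3.58.1 in R 4.3.3, in 1 model over all arrays with two-sided contrasts, and p-values were adjusted over all valid probes with a threshold of 0.01. The fit was tested on simulated data. Each stage has 5 pools from separate groups of mice, and this number limits precision. Probes were named through accessions in RefSeq. All 10 members are named. From each list up to 4 called genes with the largest change per comparison are named, and for Foxl2, Wt1 and Foxo1 (and Gata4, whose nearest genes are given under other observations) the 3 genes with the nearest pattern. Wnt4, Dmrt1, Foxo6, Sox12 and genes without a valid probe lie outside this rule and were chosen after their values were seen. The members and lists were chosen with earlier results of these data known. The planned Foxo3 and Foxo1 pair test was left out because no Foxo3 probe was valid.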

Additional observations from a re-analysis of the deposited data

Results flagged for a closer look

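Among 36 groups of 5 arrays (12 valid member probes at 3 stages), 2 held an array far from the others by Dixon's test, and chance alone marks about 1 in 20 such groups. C1 replicate 3 was the array in both. It had the lowest value of the second Foxo1 probe at C1, 3.17 against 3.61 for the nearest array, and the highest value of Emx2 at C1, -2.29 against -3.00 for the nearest array. Without C1 replicate 3 the C2 minus C1 change of Emx2 was -0.49, and that of the brighter Foxo1 probe was -1.88.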

How the results depend on the processing

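The count of genes called between NC1 and C1 was 0 under every alternative run. Over the stages the count fell from 5 to 3 (Wt1, Gata6 and Foxo1) with the median over all gene probes, spike-in scaling, the deposited table, or C2 replicates 4 and 5 only, a setting chosen after seeing the data. Those 2 scalings moved the median C2 minus C1 change of all valid probes from 0.02 to 0.33 and to -0.13. With no presence filter the genes over the stages were Wt1, Gata6, Foxo1 and Lhx9, without Emx2 and Sox4. Between C1 and C2 the count rose from 3 to 5 with the mean of all valid probes of a gene. Between NC1 and C2 it fell from 5 to 3 with C2 replicates 4 and 5 only. With each array left out in turn the counts ran from 4 to 5 over the stages, from 3 to 4 for C2 against C1 and stayed at 5 for C2 against NC1. The Gata6 minus Gata4 change ran from -0.33 to -0.01 for C1 against NC1 and from -1.03 to -0.72 for C2 against C1. With the replicate number as a block the counts were 5, 0, 3 and 5, as without it, and no call of a listed gene changed. After each probe's stage mean was subtracted, the remaining values of same-numbered arrays of NC1 and C1 correlated between 0.06 and 0.35. These correlations were positive in all 5 pairs but above 0.1 in 3. Those of the other stage pairs lay between -0.24 and 0.21. The labels name no shared source, so the numbers were not taken to pair the samples. With the slide as a block, the counts were 5, 0, 3 and 5 as well. Of 696 values of single genes under alternatives, 682 stayed on the same side of the threshold, 8 gained a call and 6 lost one, and no called value turned its direction. Foxl2 gained a call between NC1 and C2 when its probes were averaged (-0.64). The cause of these changes was not tested. Signal over background limits what can be read of Foxo3, Lhx9 and Emx2.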

Other observations

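The genes nearest to Gata4 over the 15 arrays were Nsd2, a histone methyltransferase, Ccdc86 and Rara, a retinoic acid receptor, with root mean square differences of 0.22, 0.24 and 0.24 on the log2 scale against a spread of 0.38 for Gata4 itself. The gap is narrower than for Wt1 and Foxo1, whose nearest genes differed by a small part of their own spread. Star, which carries cholesterol into mitochondria and lies among the granulosa targets without a valid probe, was well above background in 2 of 5 arrays at NC1 and in all 5 at both C1 and C2.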
